A study of Mus musculus with 4 samples.

Results

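The TGF-beta and activin pathway was followed in mouse liver after hepatectomy through 9 genes of 24421 in the expression table. They were chosen by symbol, but with earlier results of these data known. The ligand genes were Tgfb1, Inhba, Inhbc and Inhbe, and the receptor genes Tgfbr1 and Tgfbr2. The antagonist gene was Fst, and the response genes Smad7 and Skil. All 9 were present, and all 9 had a mean of at least 1 FPKM (sequenced fragments per unit of gene length and of library size), the minimum for testing. Liver RNA of hepatectomized mice given fibrin gel alone (control, 2 libraries) was compared with that of hepatectomized mice given the same gel carrying ADSC, adipose-derived stem cells (gelADSC, 2 libraries). All groups therefore had both hepatectomy and gel. No source used here gives the strain or age of the mice, the time after surgery or the source of the ADSC. Whether the 2 libraries of a group came from separate animals is also unknown, so p-values measure only the spread between libraries, which may be technical. Libraries are named by the number in their column, 1 and 3 for control and 2 and 3 for gelADSC.

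TGF-beta and the activins are secreted dimers that bind a type II receptor, which recruits and activates a type I receptor, which in turn phosphorylates Smad proteins that enter the nucleus and change transcription. Follistatin, the product of Fst, binds activin outside the cell and keeps it from its receptors, whereas Smad7 and SnoN (from Skil) are induced by the signal and dampen it inside the cell. In liver, TGF-beta and activin A are known as brakes on hepatocyte growth, and both are studied in regeneration after hepatectomy.

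Promoter sequences are shown for 4 members. Inhba and Tgfbr2 were chosen because they were called in opposite directions, and Inhbc and Inhbe because these neighbouring genes on the same strand read in opposite directions. RefSeq on GRCm38.p6 gave a window of 250 bases before to 50 bases after the gene start for 6 of the 9 members. Capitals mark matches, on either strand, to CAGAC (the core bound by Smad proteins) or TATAAA (a box of core promoters).
Inhba (chr13:16011601-16011900, + strand): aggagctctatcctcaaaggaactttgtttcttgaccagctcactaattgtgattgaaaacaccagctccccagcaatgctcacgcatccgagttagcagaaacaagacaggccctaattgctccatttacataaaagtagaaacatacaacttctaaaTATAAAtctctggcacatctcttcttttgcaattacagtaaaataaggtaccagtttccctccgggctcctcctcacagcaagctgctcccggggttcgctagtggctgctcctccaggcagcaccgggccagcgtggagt
Tgfbr2 (chr9:116175314-116175613, - strand): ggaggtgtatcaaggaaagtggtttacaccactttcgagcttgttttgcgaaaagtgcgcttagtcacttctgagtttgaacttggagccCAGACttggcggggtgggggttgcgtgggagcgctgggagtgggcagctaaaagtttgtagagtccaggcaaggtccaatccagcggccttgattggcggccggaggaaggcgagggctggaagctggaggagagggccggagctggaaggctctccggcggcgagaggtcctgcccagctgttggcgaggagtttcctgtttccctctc
Inhbc (chr10:127370499-127370798, - strand): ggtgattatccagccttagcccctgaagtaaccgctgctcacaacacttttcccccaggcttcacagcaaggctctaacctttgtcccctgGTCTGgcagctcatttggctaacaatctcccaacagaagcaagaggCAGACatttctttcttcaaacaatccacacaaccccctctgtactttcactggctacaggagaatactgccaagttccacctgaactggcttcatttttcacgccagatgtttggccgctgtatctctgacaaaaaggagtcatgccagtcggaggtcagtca
Inhbe (chr10:127351799-127352098, - strand): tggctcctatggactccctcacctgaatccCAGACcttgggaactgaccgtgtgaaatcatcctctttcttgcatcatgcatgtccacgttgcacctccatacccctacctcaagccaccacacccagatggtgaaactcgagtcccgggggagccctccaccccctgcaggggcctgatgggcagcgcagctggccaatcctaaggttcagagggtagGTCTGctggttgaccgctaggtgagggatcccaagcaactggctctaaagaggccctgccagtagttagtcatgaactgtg
The Inhba window held 1 match to TATAAA and 0 to CAGAC. The Tgfbr2 window held 1 match to CAGAC, on the strand of the gene, and the Inhbc and Inhbe windows each held 1 on either strand. No printed window held both motifs. Among all 32851 promoter windows of that length, 49.6% held CAGAC and 13.6% TATAAA, so these matches are common and are given as a description only. The windows also differed in CG dinucleotides, with 7 in Inhba, 4 in Inhbc, 6 in Inhbe and 15 in Tgfbr2, against a median of 7 over all windows.

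In gelADSC livers the activin A subunit gene Inhba rose, while its antagonist Fst, the receptor Tgfbr2 and the inhibitor Smad7 fell. These 4 members of 9 passed a limma test on log2(FPKM + 1) at a Benjamini-Hochberg adjusted p under 0.05, with 11070 genes tested, 1 higher and 3 lower. Among all tested genes 6.92% were called higher and 17.5% lower, 24.4% in all. The median log2 change was -0.60 over the members and -0.25 over all tested genes, and the members' median lay 0.35 below that common shift. In all 9 members the gelADSC libraries lay wholly above (2 genes) or below (7 genes) the controls, where 69.8% of all tested genes were so separated, 19.2% above and 50.5% below. Of all calls 28.3% were in the higher direction, but with median ratio scaling, which removes the common shift, the share was 50.1%. With that scaling Inhba was still called higher and, of the 3 lower members, only Tgfbr2 was called. Leaving out control library 1 left 0 members called in either direction by limma (3 at an unadjusted p under 0.05), and 605 calls over all genes in place of 2702.

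**Figure D1:**
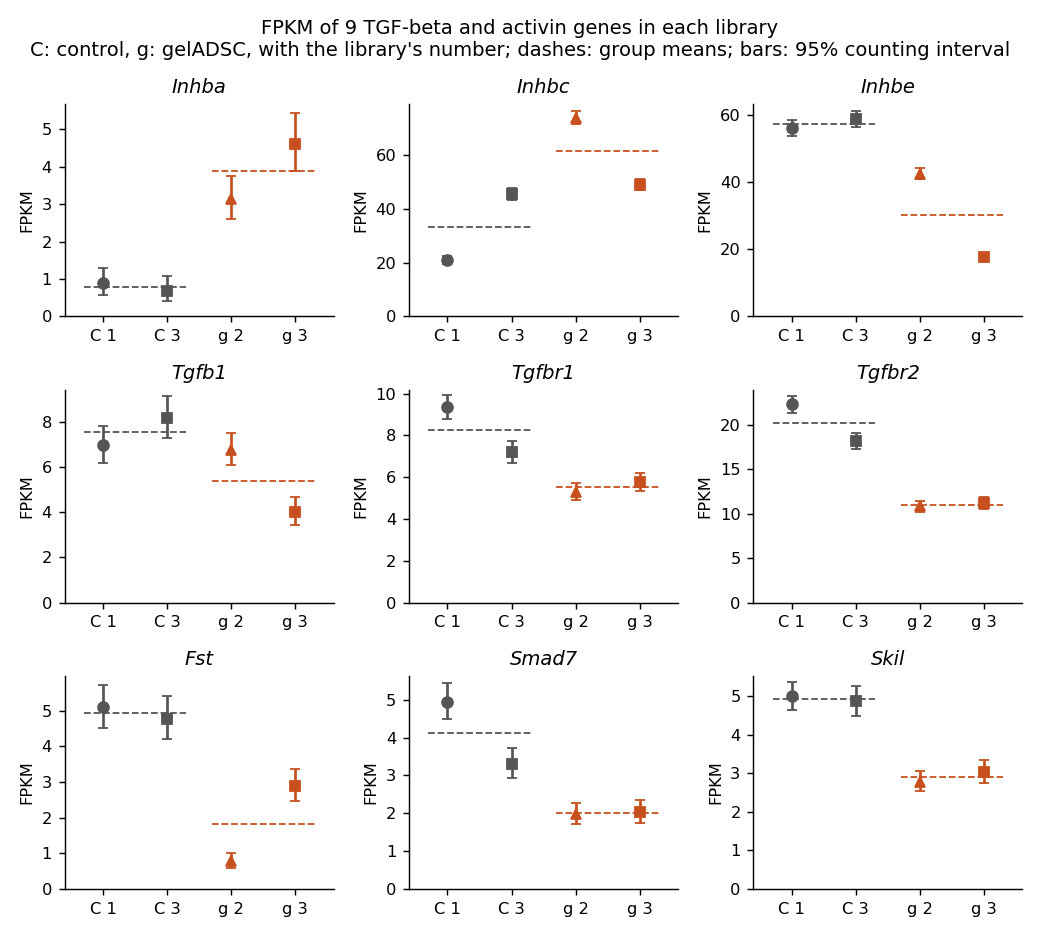
FPKM of each member in the 2 control libraries (C, grey) and the 2 gelADSC libraries (g, orange), on linear axes from 0, with group means as dashes and 95% Poisson intervals of the counted reads as bars. Inhba and Inhbc read higher in both gelADSC libraries and the other 7 genes lower, while Fst, Inhbe and Inhbc also differ between libraries of 1 group.

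Depth sets how exactly each value is known. Within a library the values of a gene were multiples of what 1 read was worth, and reads could be recovered as whole numbers, within 0.001 of a read, for 97.1% of tested genes. The libraries held roughly 18100000 to 24400000 reads. Inhba rested on the fewest reads, 27 and 19 in the controls and 117 and 142 in gelADSC, and Fst on 54 reads in gelADSC library 2. The other 7 members had at least 169 reads in every library. Read numbers are the smallest whole numbers in the observed proportion, and intervals made from them cover counting error only.

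Among the ligands, Inhba encodes the subunit of activin A. Inhba stood at 0.886 FPKM in control library 1 and 0.686 FPKM in control library 3, against 3.14 FPKM in gelADSC library 2 and 4.61 FPKM in gelADSC library 3. Both gelADSC libraries lay above both controls, and the lower gelADSC value had a 95% counting interval of 2.59 to 3.76 FPKM, above the upper bound of 1.29 FPKM in control library 1. The means were 0.786 ± 0.141 FPKM in control and 3.87 ± 1.04 FPKM in gelADSC (SD, n = 2 each), a ratio of 4.93. On the log2(FPKM + 1) scale, which understates the change of a gene this low, Inhba rose by 1.43 (SE 0.24, limma adjusted p = 0.00464). The call held in 9 of 10 alternatives and was lost without control library 1 (limma adjusted p = 0.056), and the log2 change was 2.15 with a pseudocount of 0.1 and 0.61 with 5. In bulk tissue a change in the number of cells of a type and a change in RNA per cell cannot be told apart.

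Inhbc and Inhbe encode activin subunits made chiefly by hepatocytes, and they had the highest group means of the members, although Tgfbr2 exceeded Inhbc in control library 1. Inhbc read 21.0 and 45.5 FPKM in control libraries 1 and 3 and 74.0 and 49.2 FPKM in gelADSC libraries 2 and 3. The groups did not overlap, but the controls differed from each other by 1.08 on the log2 scale, more than the log2 difference of 0.94 between the groups (SE 0.35, 95% interval 0.14 to 1.74, limma adjusted p = 0.0814). Inhbc was called higher among genes of at least 5 FPKM (limma adjusted p = 0.0485), and no other alternative on all 4 libraries called it. The log2 difference was 1.48 without control library 3 and 1.23 without gelADSC library 3. It was 0.40 without control library 1 and 0.65 without gelADSC library 2. Without gelADSC library 3 the SE was 0.31, as for Inhbe, so it did not reflect how far apart the controls of Inhbc were.

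Inhbe read 56.2 and 58.8 FPKM in control libraries 1 and 3 and 42.6 and 17.7 FPKM in gelADSC libraries 2 and 3. The control libraries were close together, and the gelADSC libraries differed from each other by 1.22 on the log2 scale. The log2 difference between groups was -1.03 (SE 0.35, 95% interval -1.83 to -0.24, limma adjusted p = 0.0616). Inhbe was called lower among genes of at least 5 FPKM (limma adjusted p = 0.0339), and no other alternative on all 4 libraries called it. The log2 difference was -1.64 without gelADSC library 2 and -0.42 without gelADSC library 3. Without gelADSC library 2 the SE was 0.32, as for Inhbc, so it did not reflect how close the controls of Inhbe were.

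Within each library the balance of these subunits differed between groups. Inhbc stood at 0.374 and 0.775 of the Inhbe level in control libraries 1 and 3, and at 1.74 and 2.77 times that level in gelADSC libraries 2 and 3. Inhbe was thus the more abundant in both controls, and Inhbc in both gelADSC libraries. This ratio was not tested. It is made from the same values as the results of Inhbc and Inhbe, neither of which was called, and is not separate evidence.

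Tgfb1 encodes the TGF-beta ligand most studied in liver fibrosis. It read 6.95 and 8.15 FPKM in control libraries 1 and 3 and 6.75 and 4.01 FPKM in gelADSC libraries 2 and 3. The gelADSC library 2 value lay close under control library 1, and their counting intervals overlapped (6.06 to 7.50 FPKM and 6.17 to 7.80 FPKM). The log2 difference was -0.45 (SE 0.25, 95% interval -1.03 to 0.12, limma adjusted p = 0.214), and it was not called in any of 11 alternatives. It was -0.77 without gelADSC library 2, -0.14 without gelADSC library 3 and -0.20 after median ratio scaling.

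Of the receptors, Tgfbr2 is the type II receptor that binds TGF-beta. It read 22.3 and 18.2 FPKM in control libraries 1 and 3 and 10.8 and 11.2 FPKM in gelADSC libraries 2 and 3. The groups were well separated, and the gelADSC libraries differed from each other by 0.05 on the log2 scale. The mean went from 20.3 ± 2.91 to 11.02 ± 0.267 FPKM (SD, n = 2 each), and Tgfbr2 fell by 0.82 on the log2 scale (SE 0.20, limma adjusted p = 0.0204). The fall was 0.54 after median ratio scaling and 0.50 after quantile normalization, where the adjusted p was 0.0505. Testing without a filter gave 0.0567. The call also went without control library 1 (0.123), gelADSC library 2 (0.0879) or gelADSC library 3 (0.0593).

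Tgfbr1 is the type I receptor that Tgfbr2 activates. It read 9.34 and 7.21 FPKM in control libraries 1 and 3 and 5.31 and 5.76 FPKM in gelADSC libraries 2 and 3. All gelADSC values were lower, but the log2 difference of -0.50 (SE 0.21, 95% interval -0.98 to -0.01) had a limma adjusted p of 0.116 and was not called in any of 11 alternatives. It was -0.33 without control library 1 and -0.24 after median ratio scaling. Tgfbr2 exceeded Tgfbr1 in each library, by 2.39 and 2.52 times in the controls and by 2.04 and 1.94 times in gelADSC.

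Fst, the follistatin gene, read 5.09 and 4.77 FPKM in control libraries 1 and 3 and 0.774 and 2.88 FPKM in gelADSC libraries 2 and 3. The controls were nearly equal, whereas gelADSC library 2 was far lower than gelADSC library 3, with a log2 difference of 1.13 between them. The mean went from 4.93 ± 0.225 to 1.83 ± 1.49 FPKM (SD, n = 2 each), and Fst fell by 1.18 on the log2 scale (SE 0.34, limma adjusted p = 0.0394). Its adjusted p was 0.138 after median ratio scaling, 0.121 after quantile normalization and 0.15 with no filter. The call also went without control library 1 (0.246), control library 3 (0.144) or gelADSC library 2 (0.262), the last with a fall of 0.61.

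The Fst level stood at 5.74 and 6.95 times that of Inhba in control libraries 1 and 3, and at 0.247 and 0.625 of it in gelADSC libraries 2 and 3. Fst was thus the more abundant transcript per length in the controls, and Inhba in gelADSC. As log2((Fst + 1) / (Inhba + 1)) the ratio averaged 1.73 in control and -0.88 in gelADSC, a difference of -2.61. A two-sided exact permutation test over the 4 libraries gave p = 0.333, the smallest p that 2 against 2 libraries allows, so it could not reach the threshold. The ratio is made from the same values as the calls of Inhba and Fst and is not separate evidence. The difference lay between -1.17 and -3.79 in all alternatives run, the extremes being those with pseudocounts of 5 and 0.1.

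**Figure D2:**
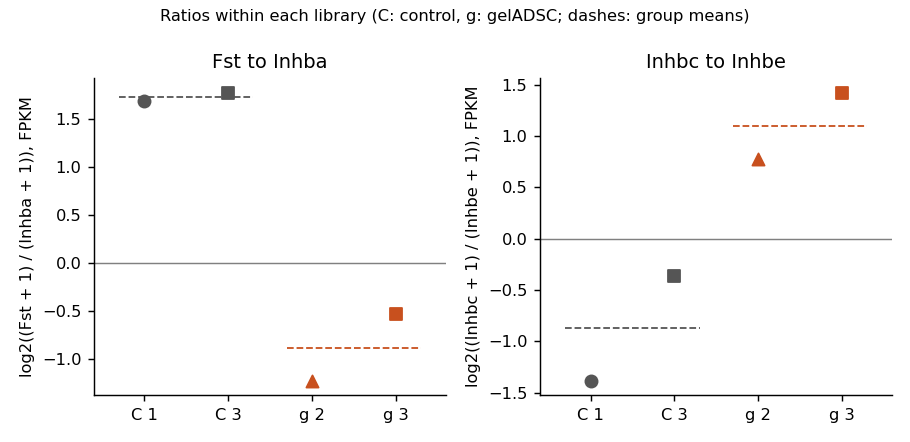
Ratios of Fst to Inhba and of Inhbc to Inhbe in each library, as the log2 of FPKM + 1 for the first gene over FPKM + 1 for the second, with group means as dashes. Fst to Inhba lies above 0 in both control libraries and below 0 in both gelADSC libraries, and Inhbc to Inhbe the reverse.

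The inhibitor genes that the pathway itself induces read lower in gelADSC. Smad7, which blocks the type I receptor, read 4.95 and 3.31 FPKM in control libraries 1 and 3 and 1.98 and 2.02 FPKM in gelADSC libraries 2 and 3. The gelADSC libraries were nearly equal and lay below both controls, which differed from each other by 0.47 on the log2 scale. Smad7 fell by 0.75 (SE 0.24, limma adjusted p = 0.0489). This call is close to the threshold and was lost in 6 of 10 alternatives, among them median ratio scaling (0.0726) and leaving out control library 1 (0.218), gelADSC library 2 (0.130) or gelADSC library 3 (0.109).

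Skil encodes SnoN, a corepressor of Smad proteins. It read 4.99 and 4.86 FPKM in control libraries 1 and 3 and 2.78 and 3.03 FPKM in gelADSC libraries 2 and 3. Values within each group were close together and the groups were apart. The log2 difference of -0.60 (SE 0.20, 95% interval -1.07 to -0.14, limma adjusted p = 0.062) missed the threshold, and Skil was not called in any of 10 alternatives, with a difference of -0.37 after median ratio scaling.

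**Figure D3:**
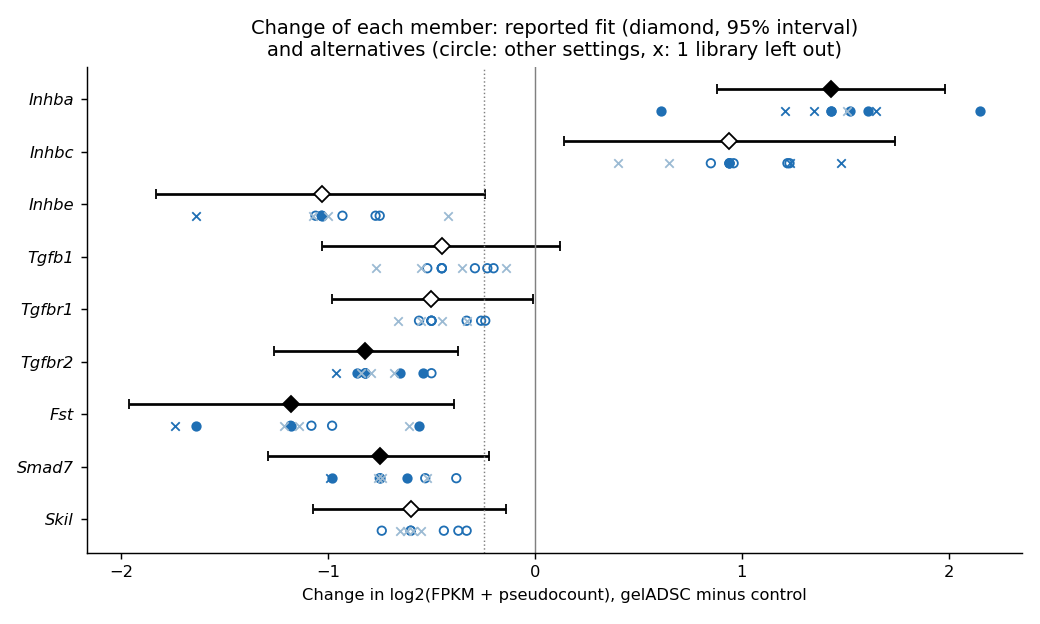
Change of each member in log2(FPKM + pseudocount), gelADSC minus control, with the reported value as a diamond (filled where the adjusted p is under 0.05) and its 95% interval. Circles (filled where called) are other settings and crosses (dark where called) are fits with 1 library left out. The dotted line is the median of all tested genes at -0.25. Inhba stays above 0 and Tgfbr2, Fst and Smad7 below 0 throughout. As their groups do not overlap, only median ratio scaling and quantile normalization could have moved them across 0.

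Ordered by mean FPKM, which is per length, the controls ran Inhbe (57.5), Inhbc (33.3), Tgfbr2 (20.3), Tgfbr1 (8.28), Tgfb1 (7.55), Fst and Skil (4.93 each), Smad7 (4.13) and Inhba (0.786). Inhbc and Tgfbr2 overlapped between control libraries, as did Tgfbr1 and Tgfb1, and Fst, Skil and Smad7 with one another. In gelADSC the order was Inhbc (61.6), Inhbe (30.2), Tgfbr2 (11.02), Tgfbr1 (5.54), Tgfb1 (5.38), Inhba (3.87), Skil (2.91), Smad7 (2.00) and Fst (1.83). Here Tgfbr1 and Tgfb1, Tgfb1 and Inhba, Skil and Fst, and Smad7 and Fst overlapped. Inhba was the lowest member in the controls and Fst had the lowest mean in gelADSC.

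The genes nearest to each called member were found by the root mean square difference of log2(FPKM + 1), centred on the gene's mean, over the 4 libraries. Nearest to Inhba were Abca8b (0.027), Hrsp12 (0.070) and Ern1 (0.070). Nearest to Tgfbr2 were Rap1gds1 (0.0062), Rpl41 (0.011) and Gnb2 (0.013), and nearest to Smad7 were Timm10b (0.0062), Nsun2 (0.017) and Chmp6 (0.019). Nearest to Fst were Snord33 (0.077), Cdh1 (0.097), which encodes E-cadherin, and Mir290a (0.13). Snord33 and Mir290a are genes of short RNAs that a library of polyadenylated RNA does not measure well. With 4 libraries many genes share a pattern, and the distances describe these libraries only.

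The rest of the pathway leaned to lower values in gelADSC. Of 108 other genes in 8 lists, 78 were tested, and 22 of these fell (28.2%, where 17.5% of all tested genes were called lower). By limma 0 of the 78 were called higher, and 3 had an unadjusted p under 0.05 in that direction. Without the mean-variance trend limma also called 0 higher and 22 lower. Their median log2 change was -0.33, against -0.25 for all tested genes. With median ratio scaling Gdf2 and Smad5 were called higher (limma adjusted p = 0.0379 and 0.0466) and 16 of the 78 lower. Over all 11070 tested genes that setting called 952 higher and 948 lower. Gdf2 and Smad5 are named after their values were seen. With no filter 12 of 103 pathway genes were lower, where 730 of all 17563 tested genes were. Without control library 1 fewer pathway genes were called lower, and fewer of all genes as well.

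**Figure D4:**
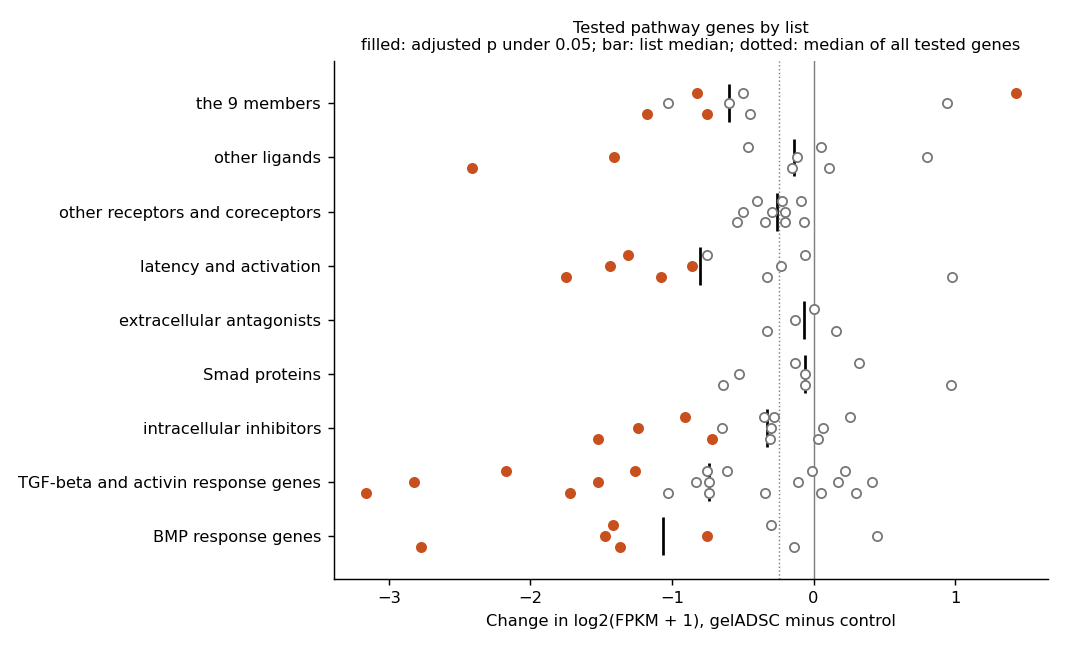
Change in log2(FPKM + 1), gelADSC minus control, of each tested gene in the 9 members and the 8 pathway lists, filled where the adjusted p is under 0.05, with list medians as bars and the median of all tested genes (-0.25) as a dotted line. Called lower are 5 of 10 genes of latency and activation, 4 of 12 intracellular inhibitors, 6 of 20 TGF-beta and activin response genes, 5 of 8 BMP response genes and 2 of 8 other ligands, beside 17.5% of all tested genes. The row of Smad proteins includes Zfyve9, and Inhba is the only filled point above 0.

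Among the other ligands 2 of 8 tested fell. Inhbb, the subunit of activin B, read 10.4 and 12.5 FPKM in control libraries 1 and 3 and 1.35 and 1.33 FPKM in gelADSC libraries 2 and 3. Its groups were far apart, and it fell by 2.41 on the log2 scale (SE 0.21, limma adjusted p = 0.000238), called in all 11 alternatives. The activin subunit genes thus moved in opposite directions, with Inhba higher and Inhbb lower. Gdf15, a stress-induced member of the family, fell from 27.0 ± 6.61 to 9.57 ± 2.79 FPKM (SD, n = 2 each), with a limma adjusted p of 0.0065, which was 0.10 without control library 1. Of the tested BMP ligand genes, Bmp2, Bmp4, Bmp5, Bmp6 and Bmp10 were not called by limma, and 0 of them had an unadjusted p under 0.05. Gdf2, which encodes BMP9, was not called either (log2 change 0.80, SE 0.27, limma adjusted p = 0.062). Its unadjusted limma p was 0.0172, however, and it was called higher in 3 of 11 alternatives.

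By limma 0 of 10 other receptors and coreceptors passed, and 1 had an unadjusted p under 0.05, in the lower direction. All 10 had log2 changes below 0, as had 7616 of all 11070 tested genes. Their median of -0.26 was near that of all tested genes, and it was -0.05 after median ratio scaling. The most abundant, Hfe2, which encodes the BMP coreceptor hemojuvelin, averaged 47.8 ± 1.40 in control and 36.0 ± 4.14 FPKM in gelADSC (SD, n = 2 each, limma adjusted p = 0.147). Of the Smad genes and Zfyve9, which encodes their adaptor SARA, 0 of 7 were called by limma, with 1 higher and 2 lower at an unadjusted p under 0.05. Smad4, the partner shared by all branches, read 9.29 ± 1.17 and 8.42 ± 0.994 FPKM (SD, n = 2 each, limma adjusted p = 0.676), and its log2 difference of -0.13 became 0.14 with median ratio scaling. Neither did limma call any of 4 tested extracellular antagonists other than Fst, with 0 at an unadjusted p under 0.05. Dcn, the proteoglycan decorin, read 84.1 ± 40.7 and 79.3 ± 8.27 FPKM (SD, n = 2 each), with control library 1 at 113 FPKM and control library 3 at 55.3 FPKM.

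Of 10 tested genes of latency and activation, which hold TGF-beta in an inactive complex or release it, 5 fell. Thbs1, the matrix protein thrombospondin, read 5.80 and 2.67 FPKM in control libraries 1 and 3 and 0.586 and 0.402 FPKM in gelADSC libraries 2 and 3 (limma adjusted p = 0.00579). Furin, the protease that cleaves the TGF-beta precursor, fell from 120 ± 11.1 to 43.6 ± 2.48 FPKM (SD, n = 2 each, limma adjusted p = 0.00146). Itgav, the integrin subunit of the receptors that release TGF-beta, fell from 12.01 ± 2.43 to 4.22 ± 0.678 FPKM (SD, n = 2 each, limma adjusted p = 0.00491). Without control library 1 the adjusted p was 0.0505 for Thbs1, 0.0704 for Itgav and under the threshold for Furin, at 0.0351. The list's median log2 change was -0.80.

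Intracellular inhibitors beside Smad7 and Skil fell in 4 of 12 cases, where 17.5% of all tested genes were called lower. The list median of -0.33 lay near the -0.25 of all tested genes, and it was -0.09 after median ratio scaling. Tgif1, a Smad corepressor, fell from 15.8 ± 6.61 to 4.64 ± 0.205 FPKM (SD, n = 2 each, limma adjusted p = 0.0068). Nedd4l, a ubiquitin ligase of Smad proteins, fell from 17.4 ± 1.70 to 6.87 ± 1.68 FPKM (SD, n = 2 each, limma adjusted p = 0.00596). Pmepa1, a feedback inhibitor induced by TGF-beta, fell from 2.39 ± 0.240 to 0.800 ± 0.109 FPKM (SD, n = 2 each, limma adjusted p = 0.021). Without control library 1 their adjusted p-values were 0.0569, 0.0873 and 0.109.

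Response genes of TGF-beta and activin fell in 6 of 20 cases, with a median log2 change of -0.74. Ctgf, a matricellular growth factor also driven by YAP, fell from 22.9 ± 4.47 to 4.63 ± 2.81 FPKM (SD, n = 2 each), with a limma adjusted p of 0.00323, which was 0.0957 without control library 1. Cdkn1a, a cell cycle inhibitor that many other signals induce, fell from 117 ± 22.7 to 23.1 ± 24.7 FPKM (SD, n = 2 each, limma adjusted p = 0.0205). It read 5.56 FPKM in gelADSC library 2 and 40.5 FPKM in gelADSC library 3. The call was lost after median ratio scaling (limma adjusted p = 0.104), with a log2 change of -2.55. It also went without control library 1 or control library 3, with log2 changes of -2.63 and -3.02. Without gelADSC library 2 Cdkn1a fell by 1.49 on the log2 scale, against 2.82 with all libraries. The matrix genes Col1a1, Col1a2 and Fn1 did not pass. Col1a1 read 7.17 and 2.53 FPKM in control libraries 1 and 3 and 4.71 and 2.17 FPKM in gelADSC libraries 2 and 3, so its groups overlapped. These 3 are named after their values were seen.

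BMP response genes fell in 5 of 8 cases, with a median log2 change of -1.06. Id1, an inhibitor of helix-loop-helix factors, read 105 and 60.1 FPKM in control libraries 1 and 3 and 9.74 and 11.9 FPKM in gelADSC libraries 2 and 3 (limma adjusted p = 0.000476). Id2, of the same family, fell from 261 ± 63.0 to 92.1 ± 3.98 FPKM (SD, n = 2 each, limma adjusted p = 0.0029). Id1 and Id2 were called in all 11 alternatives. Hamp, the iron hormone hepcidin, read 3457 and 2617 FPKM in control libraries 1 and 3 and 746 and 1700 FPKM in gelADSC libraries 2 and 3 (limma adjusted p = 0.0294). Its adjusted p passed the threshold neither after median ratio scaling (0.126) nor without control library 1 (0.252), control library 3 (0.0961) or gelADSC library 2 (0.0867), the last with a fall of 0.82 against 1.42 with all libraries. With no filter the limma adjusted p was 0.149 for Hamp, 0.117 for Cdkn1a, 0.0573 for Tgif1, 0.0556 for Pmepa1, 0.0541 for Thbs1 and 0.0506 for Gdf15.

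Marker genes of liver cell types were read beside these results. Their counts of calls stand against 6.92% of all tested genes called higher and 17.5% called lower. The lowest value of any of the 8 hepatocyte markers in any library was 156.5 FPKM, for Hnf4a, and their sum was 54800 to 65900 FPKM in control and 45400 to 62500 FPKM in gelADSC. Limma called 0 of these 8. At an unadjusted limma p under 0.05, Ttr, Serpina1a and Cps1 read higher in gelADSC and Apoa1 lower. Of 8 hepatic stellate cell markers 3 rose and 1 fell, with sums of 103 and 56.0 FPKM in control libraries 1 and 3 and 46.2 and 54.6 FPKM in gelADSC libraries 2 and 3. Most of these sums was Ecm1 in the controls (80.9 and 42.5 FPKM), the marker that fell (20.0 and 28.9 FPKM in gelADSC). Lrat, Reln and Rgs5 rose, and the median log2 change of the list was 0.36. The call was lost in 4 of 11 alternatives for Ecm1, 4 of 10 for Lrat, 5 of 10 for Reln and 4 of 11 for Rgs5. Of 8 sinusoidal endothelial cell markers 2 rose and 1 fell (sums of 115 to 125 FPKM in control and 118 to 131 FPKM in gelADSC). Of 8 Kupffer cell and macrophage markers 1 fell, with sums of 303 to 315 FPKM in control and 169 to 294 FPKM in gelADSC. Monocyte and neutrophil markers gave 0 calls among 6 tested by limma, with 1 lower at an unadjusted p under 0.05, and sums of 68.1 to 72.6 FPKM in control and 26.5 to 79.1 FPKM in gelADSC. Of 6 tested bile duct cell markers 2 fell, with sums of 178 to 319 FPKM in control and 55.2 to 63.5 FPKM in gelADSC. Most of each sum was Spp1 (150 and 298 FPKM in control, 52.1 and 43.5 FPKM in gelADSC), which fell with Sox9, while Krt7 and Epcam overlapped between groups, with log2 changes of -0.16 and 0.03. Of 6 tested adipose stromal cell markers 1 fell, with sums of 72.2 and 50.9 FPKM in control libraries 1 and 3 and 56.2 and 35.5 FPKM in gelADSC libraries 2 and 3. None of the markers in the table was listed at 0 in any library. The part of these cell types in the values of the members was not tested.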

How the data were processed

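RNA was extracted from liver with the RNeasy Mini kit and made into libraries with a TruSeq stranded mRNA kit, per the labels' protocols. The deposited table gives 1 value per symbol and library, taken as FPKM made by the authors although its header names no unit. Trimmomatic 0.38, TopHat2 2.1.1 and Cufflinks 2.2.1 are named without order or settings, per the submitters' processing notes. Those notes name hg19, which cannot be the reference of mouse symbols. The annotation, and whether counting used strand, are not stated there. In GENCODE M21, 4 members (Inhba, Inhbc, Inhbe and Fst) overlap other genes, whose reads may be included. The strands of the overlapping genes were not compared.

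The FPKM were not scaled further. A gene entered the test when its 4 values averaged 1 FPKM or more, which left 11070 genes. The two-sided test was limma 3.58.1 (R 4.3.3) on log2(FPKM + 1), its prior variance following the mean. The test was tried on simulated data. Relative depth came from the ratios of low values, reads of each gene from the smallest whole numbers that fit the 4 libraries, and total reads from exon lengths of 991 genes with 1 transcript, 360 of which fell in the most frequent bin. Intervals of a library's value are exact Poisson at 95%. Alternatives were pseudocounts of 0.1 and 5, no filter, a mean of at least 5 FPKM, median ratio scaling, quantile normalization, no trend, and leaving out each library, with the same genes tested. The members and lists were chosen with earlier results of these data known. Text names all members, in each pathway list the 3 largest called changes per direction or, with no call, the most abundant gene, and the 3 nearest patterns per called member. Cyr61, Junb and other listed genes enter the counts only. Ly6g was not analysed here. One response gene that the rule names is not reported here.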

Additional observations from a re-analysis of the deposited data

How the results depend on the processing

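Every member kept its direction in all alternatives in which it was tested. The groups did not overlap in any member, however, so only median ratio scaling and quantile normalization could have changed a direction. The adjusted p crossed the threshold in 23 of 95 such fits, downward in 5 and upward in 18. The number of members called higher was 1 with every other setting and 0 to 2 with 1 library left out. With a minimum of 5 FPKM that 1 member was Inhbc, since Inhba was not tested. The number called lower, 3, became 0 with no filter, 1 after median ratio scaling and 1 after quantile normalization, and 0 to 2 with 1 library left out. Other pathway genes called higher, 0, became 1 with no filter, 1 with a minimum of 5 FPKM, 2 after median ratio scaling and 2 after quantile normalization, and 0 to 2 with 1 library left out. Those called lower, 22 of 78, became 12 of 103 with no filter and 16 of 78 after median ratio scaling, and were fewer without control library 1. Over all genes, 2702 calls became 1255 with no filter and 605 to 2317 with 1 library left out. With 1 library left out, the spread can come only from the other group and from what limma shares across genes. It is taken to hold for the remaining library too. Without gelADSC library 2 the SE was 0.32 for both Inhbe and Inhbc, although their controls differed by 0.06 and 1.08 on the log2 scale. P-values from fits without a gelADSC library thus hardly reflect a gene's own spread. The log2 difference of Dcn, 0.00, became -0.003 with a pseudocount of 5, ran from -0.51 without control library 3 to 0.51 without control library 1, and was -0.10 without gelADSC library 2, and that of Smad4, -0.13, became 0.14 after median ratio scaling and 0.14 after quantile normalization. The Fst to Inhba difference of -2.61 was -2.59 with median ratio scaling and -2.26 to -2.95 with 1 library left out. The cause of these changes was not tested. With pseudocounts of 0.1 and 5 the log2 change was -1.64 and -0.56 for Fst and -0.98 and -0.38 for Smad7. Depth limits Inhba most, at 19 reads in control library 3. No paired analysis was possible because the columns of the groups share only 1 number, 3, while the titles number both groups 1 and 2.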

Other observations

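Of the other pathway genes, 30 had a mean under 1 FPKM and were not tested. Tgfb2, a further TGF-beta ligand, read 0.807 and 0.386 FPKM in control libraries 1 and 3 and 0.182 and 0.168 FPKM in gelADSC libraries 2 and 3, on 76, 33, 21 and 16 reads. Acvr2b, a type II activin receptor, read 0.325 and 0.13 FPKM in control libraries 1 and 3 and 0.964 and 0.846 FPKM in gelADSC libraries 2 and 3, on 11, 4, 40 and 29 reads. With no filter Acvr2b was called higher (limma adjusted p = 0.0459). Bmp7, another ligand of the family, read 0.164 and 0.181 FPKM in control libraries 1 and 3 and 0.503 and 0.703 FPKM in gelADSC libraries 2 and 3, on 12, 12, 45 and 52 reads. The groups did not overlap in any of these 3 genes, as was so for 69.8% of all tested genes. These 3 were chosen after their values were seen, so their separation carries no weight.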
